A study of Homo sapiens with 8 samples.

Results

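The subunits of the oxidative phosphorylation machinery were taken from 8 polyadenylated RNA libraries of colorectal cancer cells by their gene symbols. The symbol had to carry the stem of a complex I gene (NDUFA, NDUFB, NDUFC, NDUFS or NDUFV with a number), of complex II (SDHA to SDHD), of complex III (UQCR), of complex IV (COX4 to COX8), of the ATP synthase (ATP5), or the name of a mitochondrially encoded mRNA (MT-). Of 60649 gene identifiers listed in every library, 159 matched, and 96 of these were protein-coding, 13 of them on the mitochondrial chromosome and 83 in the nucleus. The other 63 members were pseudogenes, 51 of ATP5 genes and 12 of UQCR genes. Only 7 of the 63 exceeded 1 TPM (a transcript level scaled for gene length and to one total per library) in any library, the highest value was 2.71 TPM, and 34 were listed at 0 in all 8 libraries. The name pattern passes over COX4I1, COX4I2, COX7A2L, CYC1, CYCS, NDUFAB1, NDUFA4L2 and DMAC2L, which were followed as a separate list.

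HCT116 is an established human colorectal carcinoma line, and UF1hypo is a single HCT116 clone in which exon 4 of 1 UHRF1 allele had been excised, so that every UF1hypo value describes 1 clone. Stable pools of both lines expressed a scrambled hairpin, shScr, or 1 that targets UHRF1, shUHRF1. Each of these 4 groups had 2 libraries. UHRF1 is the protein that directs the maintenance DNA methyltransferase to newly replicated DNA. Which of the harvest days named in the methods applies to these libraries, and whether the replicates came from separate cultures, is not given in the sources used here, so p-values measure only the spread between these libraries. The depth was 5.42 to 7.83 gigabases of aligned sequence per library. UHRF1 itself stood at 87.5 and 98.4 TPM in HCT116 with shScr, 31.7 and 32.7 with shUHRF1, 47.3 and 50.6 in UF1hypo with shScr, and 34.1 and 21.1 with shUHRF1, lower with the hairpin in every library of both lines (log2 fold change -1.50, SE 0.22, adjusted p = 0.0564 in HCT116 and -0.84, SE 0.22, adjusted p = 0.0406 in UF1hypo, limma). The UHRF1 levels of the 2 knockdown groups overlapped. Of the marker lists, 6 of 8 colorectal epithelial genes exceeded 1 TPM, and 0 of 5 leukocyte, 1 of 4 fibroblast and 3 of 4 muscle genes did. None of these markers was at 0 in all 8 libraries. VIL1 and LGR5 were the epithelial markers that stayed below 1 TPM, at or below 0.142 TPM.

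Oxidative phosphorylation couples the transfer of electrons along complexes I to IV of the inner mitochondrial membrane to the pumping of protons, and the ATP synthase, complex V, uses the resulting gradient to make ATP. Its subunits come from both genomes. The mitochondrial chromosome encodes core subunits of complexes I, III, IV and V as polycistronic transcripts that are cut and polyadenylated, whereas complex II is wholly nuclear. The nuclear genes are transcribed singly, many from CpG-rich promoters with sites for the factors NRF1, ETS family proteins and YY1.

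Promoter windows of 300 bases (250 before and 50 after the annotated start, RefSeq, GRCh38.p14) were found for 67 of the 83 nuclear encoded members. They held a median of 23 CpG dinucleotides (range 0 to 41), against 14 over 27305 promoters. The NRF1 palindrome with its central bases left free was present in 18 of 67 windows (26.9%, against 8.78% of all promoters), and the stricter palindrome with fixed central bases, a subset of it, in 4 (5.97%, against 1.36%). The ETS sequence CCGGAAG, searched like the others on both strands, was present in 19 windows (28.4%, against 10.7%), and a longer YY1 sequence and the overlapping CAAGATGGC in 4 (5.97%, against 0.916%) and 5 (7.46%, against 1.48%). These are matches of letters and do not show that a factor was bound. The 4 windows below are printed because the results turn on their genes. COX6B2 and COX6B1 are alternative forms of the same complex IV subunit, of which the testis form rose in UF1hypo knockdown cells and the common form was not called, and capitals mark every CpG in them. ATP5F1C fell in UF1hypo knockdown cells and NDUFS3 had the lowest log2 fold change of the nuclear encoded members in the HCT116 knockdown, and capitals mark the NRF1 match in the former and the ETS matches in the latter. COX7A1 has no window in the table.
COX6B2: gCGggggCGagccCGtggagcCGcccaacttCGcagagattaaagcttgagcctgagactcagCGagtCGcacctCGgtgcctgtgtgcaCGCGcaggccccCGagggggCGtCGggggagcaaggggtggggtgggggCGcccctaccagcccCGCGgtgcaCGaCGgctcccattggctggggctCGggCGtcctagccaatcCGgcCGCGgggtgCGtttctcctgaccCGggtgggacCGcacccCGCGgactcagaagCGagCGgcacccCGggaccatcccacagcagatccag
COX6B1: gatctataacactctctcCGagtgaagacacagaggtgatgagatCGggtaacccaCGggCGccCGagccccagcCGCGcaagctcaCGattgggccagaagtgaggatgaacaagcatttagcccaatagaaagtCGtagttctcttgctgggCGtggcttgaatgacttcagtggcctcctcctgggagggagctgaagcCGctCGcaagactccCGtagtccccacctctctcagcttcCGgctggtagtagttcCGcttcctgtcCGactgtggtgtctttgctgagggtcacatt
ATP5F1C: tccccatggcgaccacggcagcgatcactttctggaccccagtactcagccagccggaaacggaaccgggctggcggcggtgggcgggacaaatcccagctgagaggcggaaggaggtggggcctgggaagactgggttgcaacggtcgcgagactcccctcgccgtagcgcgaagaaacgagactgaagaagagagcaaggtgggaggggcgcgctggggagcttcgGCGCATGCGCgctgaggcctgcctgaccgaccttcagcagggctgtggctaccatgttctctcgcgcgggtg
NDUFS3: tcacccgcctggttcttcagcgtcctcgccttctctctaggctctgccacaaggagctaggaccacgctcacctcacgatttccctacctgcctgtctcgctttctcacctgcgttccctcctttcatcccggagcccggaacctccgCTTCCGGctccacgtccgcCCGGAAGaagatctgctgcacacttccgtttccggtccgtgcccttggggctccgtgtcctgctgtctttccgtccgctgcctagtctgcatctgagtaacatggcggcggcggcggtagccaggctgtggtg
The COX6B2 window (chr19:55354670-55354969, minus strand) held 31 CpG and 72% G+C, and the COX6B1 window (chr19:35648073-35648372, plus strand) held 16 CpG and 56.7% G+C. The NRF1 match in the ATP5F1C window (chr10:7787927-7788226, plus strand) began 22 bases before the start, and the ETS matches in the NDUFS3 window (chr11:47578824-47579123, plus strand) began 102 and 83 bases before the RefSeq start. That NDUFS3 start lies inside the span annotated for the gene in these libraries (chr11:47565336-47584562), not at its first base.

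A property of the libraries touches the members directly. In UF1hypo shUHRF1 the gap between replicate 1 and replicate 2 followed the G+C content of the transcript. Across 79 nuclear encoded members above 1 TPM, the gap and the G+C content of the canonical transcript had Pearson's r = 0.781 and Spearman's rho = 0.793, and across all 13781 genes above 1 TPM rho was 0.814. The points share the same pair of libraries, and genes are not independent replicates. In UF1hypo shScr the relation ran the other way, with r = -0.638 and rho = -0.644 over the same 79 members. In the HCT116 groups r was 0.204 in shScr and 0.0677 in shUHRF1. All 13 mitochondrially encoded mRNAs were lower in UF1hypo shUHRF1 replicate 1 than in replicate 2, by a median of -0.79 on the log2(TPM + 1) scale, and their median G+C content was 44.3%, against 47.2% for the nuclear encoded members and 50.1% for all genes above 1 TPM. The summed levels, counts of calls and called members of the UF1hypo knockdown are therefore also given without that replicate, and after removal of each library's median within bins of G+C content and transcript length.

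**Figure D1:**
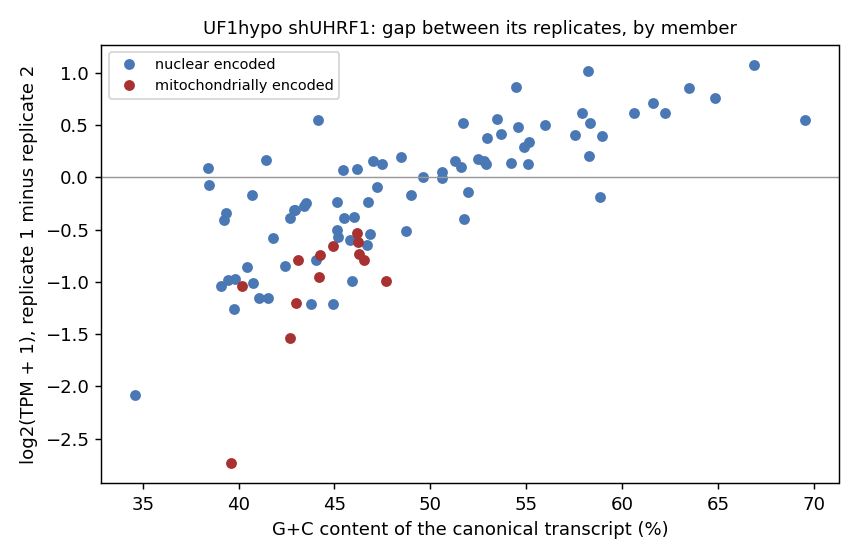
Each point is a protein-coding member above 1 TPM in at least 1 library, with the G+C content of its canonical transcript in percent on the x axis and its log2(TPM + 1) in UF1hypo shUHRF1 replicate 1 minus replicate 2 on the y axis. The gap rises with G+C content (r = 0.781 over 79 nuclear encoded members), and all 13 mitochondrially encoded members lie below 0.

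The 13 mitochondrially encoded mRNAs made up a large share of each library. Their summed level was 14.1% and 14.4% of all TPM in HCT116 with shScr, 14.6% and 15.6% with shUHRF1, 13.8% and 12.0% in UF1hypo with shScr, and 6.61% and 11.9% with shUHRF1. The share was thus higher in both HCT116 knockdown libraries than in both control libraries, and lower in both UF1hypo knockdown libraries than in both of theirs, although UF1hypo shUHRF1 replicate 2 lay just below the lower control. The means with their SD (n = 2 each) were 14.2% ± 0.176, 15.1% ± 0.761, 12.9% ± 1.24 and 9.27% ± 3.76 in the same order. Without UF1hypo shUHRF1 replicate 1 the fall in UF1hypo shrank from -3.61 to -0.95 percentage points. After the correction for G+C content and length the UF1hypo shares were 13.9% and 13.01% with shScr and 9.65% and 12.4% with shUHRF1. An exact permutation test of 2 libraries against 2 cannot give a two-sided p below 0.33, and no test was made on these sums. In bulk RNA a lower level cannot be told apart from fewer cells that express a gene.

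The 83 nuclear encoded members together gave a steadier picture. As a share of the TPM of nuclear genes they stood at 1.87% and 1.87% in HCT116 with shScr, 1.90% and 2.13% with shUHRF1, 1.84% and 1.88% in UF1hypo with shScr, and 1.55% and 1.54% with shUHRF1. The UF1hypo knockdown libraries were the lowest of the 8 and lay close to each other in this sum, in contrast to the mitochondrial share. Parts of the sum differed between these replicates in opposite directions. In replicates 1 and 2 the nuclear complex I genes summed to 5980 and 4963 TPM, and those of complex V to 3936 and 4192. After the correction for G+C content and length the shares were 1.75% and 1.62%, against 1.86% and 1.94% in UF1hypo shScr. The group means of UF1hypo differed by -0.315 percentage points, by -0.311 with replicate 1 and -0.320 with replicate 2 of the knockdown alone, and by -0.218 after the correction for G+C content and length. The log2 ratio of the mitochondrial to the nuclear sum, each as a share of all TPM, was 3.16 and 3.19 in HCT116 with shScr, 3.20 and 3.16 with shUHRF1, 3.15 and 2.88 in UF1hypo with shScr, and 2.20 and 3.16 with shUHRF1. Only UF1hypo shUHRF1 replicate 1 and, to a smaller degree, UF1hypo shScr replicate 2 lay away from the other 6 libraries in this ratio. The corrected UF1hypo ratios were 3.12 and 2.95 with shScr and 2.61 and 3.13 with shUHRF1.

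**Figure D2:**
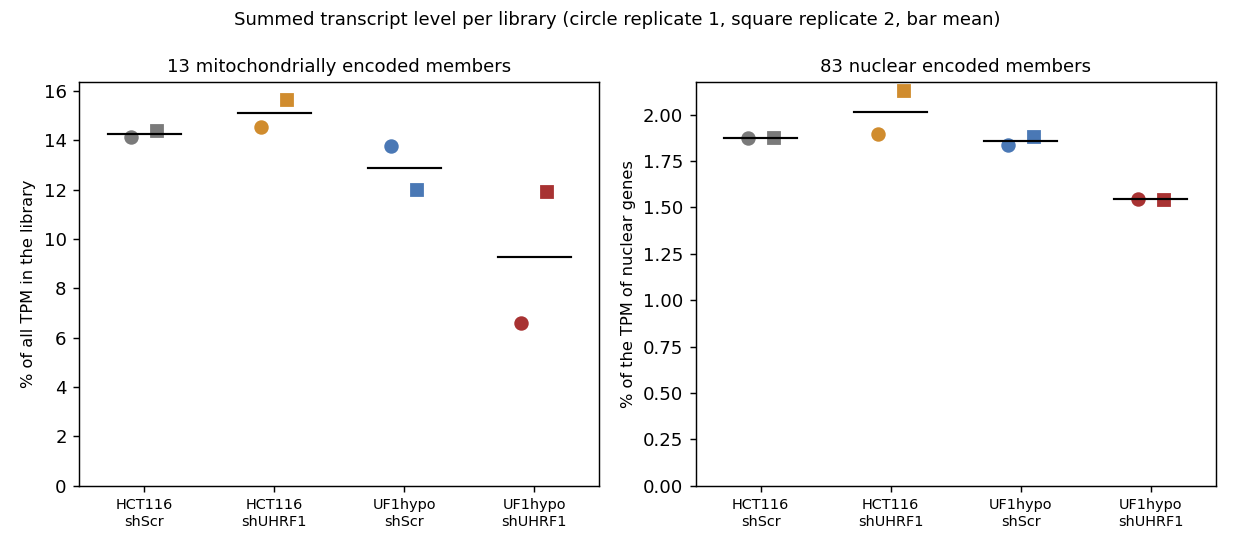
The left panel plots the summed TPM of the 13 mitochondrially encoded members as a percent of all TPM, and the right panel that of the 83 nuclear encoded members as a percent of the TPM of nuclear genes, for each library of the 4 groups (circle replicate 1, square replicate 2, bar mean of 2). UF1hypo shUHRF1 replicate 1 sits at 6.61% on the left, whereas both UF1hypo shUHRF1 libraries sit near each other on the right at 1.55% and 1.54%.

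Of the mitochondrially encoded mRNAs, MT-CO3, a core subunit of complex IV (chrM:9207-9990, GRCh38), was the most abundant in HCT116. It stood at 22490 and 24614 TPM in HCT116 with shScr, 25177 and 27939 with shUHRF1, 22123 and 19127 in UF1hypo with shScr, and 8632 and 14887 with shUHRF1. Both UF1hypo knockdown libraries were below all the others. MT-CO3 fell by 0.86 on the log2(TPM + 1) scale (SE 0.24) in the UF1hypo knockdown, the only mitochondrially encoded member past the threshold there (limma, Benjamini-Hochberg adjusted p = 0.0469). Without UF1hypo shUHRF1 replicate 1 its change was -0.47 and the call was lost (adjusted p = 0.104), and after the G+C and length correction it was -0.72 (adjusted p = 0.021).

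The other 12 had negative log2 fold changes in that comparison without passing the test, from -0.28 for MT-CYB, the cytochrome of complex III, to -0.95 for MT-ATP8. The median over the 13 was -0.48, against 0.04 over 13620 tested genes. Without UF1hypo shUHRF1 replicate 1 that median was -0.02 with 0 of 13 called by limma, and without replicate 2 it was -0.93 with 12 of 13 called, where 19.4% and 47.6% of all genes were called. After the correction it was -0.28 with 1 of 13 called, where 30.5% of all genes were. Quantile normalization left 11 of the 13 negative. That setting gives values by rank, and these mRNAs filled 6 to 9 of the top 10 places in the UF1hypo libraries. It therefore removes much of any change shared by the 13 and cannot decide whether there was one. MT-ATP8, the short ATP synthase subunit whose gene overlaps that of MT-ATP6, showed the widest gap between replicates, with 6890 and 4023 TPM in UF1hypo with shScr and 1059 and 7058 with shUHRF1. MT-ND6, the complex I subunit encoded on the other strand, stood at 3481 and 2619 TPM in UF1hypo with shScr and at 1062 and 3090 with shUHRF1, so its groups overlapped as well.

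In HCT116 none of the 13 changed by limma, none had an unadjusted p under 0.05, and their log2 fold changes ran from -0.13 for MT-CO1 to 0.53 for MT-ND3. The value for MT-ND3 rested on HCT116 shUHRF1 replicate 2, at 9437 TPM against 5378 in replicate 1 and 5484 and 4426 in the controls. In the comparison of the knockdown lines, UF1hypo shUHRF1 against HCT116 shUHRF1, 6 of the 13 were lower (MT-ATP6, MT-CO2, MT-CO3, MT-ND4, MT-ND5 and MT-ND6), where 9.6% of all genes were lower, led in adjusted p by MT-CO3 at -1.23 (SE 0.24, adjusted p = 0.0061). The count was 2 after quantile normalization, 1 without UF1hypo shUHRF1 replicate 1 (median over the 13 -0.29, against -0.65 with all libraries) and 13 without its replicate 2, where 32.3%, 33.2% and 60.7% of all genes were called.

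**Figure D3:**
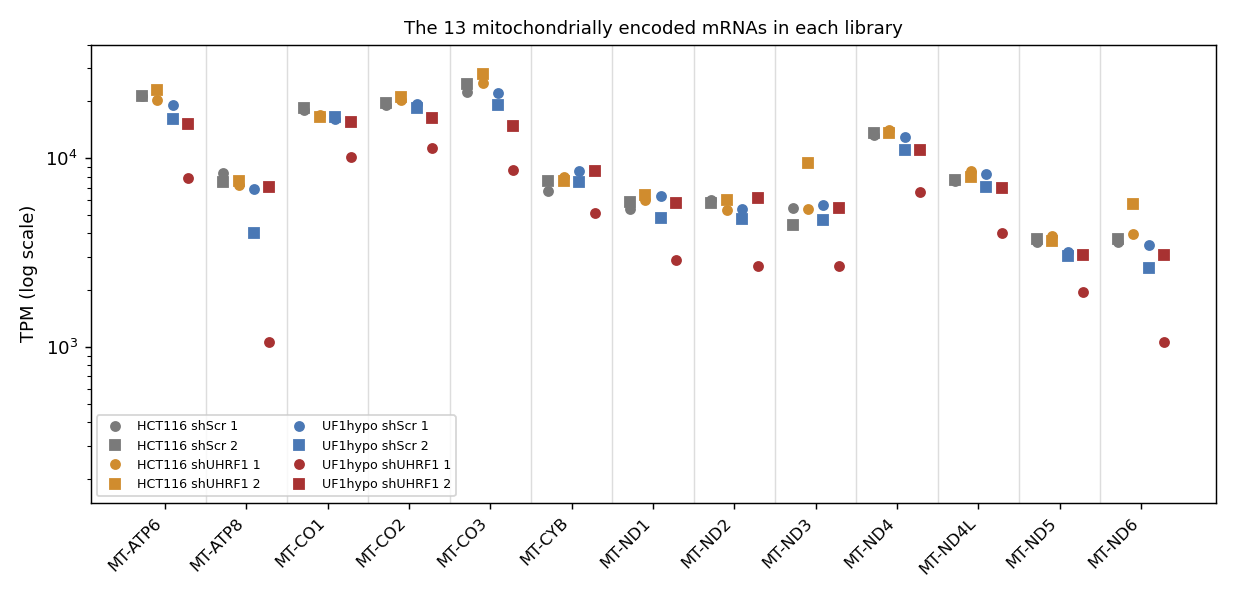
Each mitochondrially encoded mRNA is shown in all 8 libraries, with TPM on a logarithmic y axis, color for the group and a circle or square for replicate 1 or 2. UF1hypo shUHRF1 replicate 1 is the lowest library for each of the 13, from 1059 TPM for MT-ATP8 to 11316 TPM for MT-CO2.

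The balance among the 13 could be read within each library, free of their summed level. MT-CO3 made up 16.1% and 15.9% of the mitochondrial sum in UF1hypo with shScr and 13.1% and 12.5% with shUHRF1, and 15.9% to 17.9% in the HCT116 libraries. MT-CYB moved the other way, from 6.25% and 6.23% to 7.77% and 7.16% in UF1hypo, above its 4.76% to 5.49% in HCT116. For both mRNAs the UF1hypo groups did not overlap, whereas the mitochondrial sums of the UF1hypo knockdown replicates were 6.61% and 11.9% of TPM. In the UF1hypo knockdown the share was higher in both libraries for MT-CYB, MT-ND2 and MT-ND5, lower in both for MT-CO3 and MT-ATP6, and overlapping for the other 8. In the HCT116 knockdown 2 shares were higher, 4 lower and 7 overlapping. A share rises when the others fall, and these counts were not tested. An exact permutation test of 2 libraries against 2 cannot give a two-sided p below 0.33. Some shares would therefore not overlap even without any effect. Reads from the mitochondrial mRNAs may also be split with 402 nuclear pseudogene copies, whose sum ran from 1078 TPM in UF1hypo shUHRF1 replicate 1 to 3638 TPM in HCT116 shUHRF1 replicate 2, most of it in MTATP6P1, so the levels of MT-ATP6 and MT-CO3, and those of the overlapping pairs MT-ATP8 with MT-ATP6 and MT-ND4L with MT-ND4, are uncertain to that extent.

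In HCT116 the knockdown left the members without a call in the fit of all 8 libraries. Of 92 tested, 79 of them nuclear encoded and all with a level above 1 TPM in at least 1 library, 0 passed in limma at an adjusted p below 0.05 (0.0708% of all 12704 genes tested did), and 4 had an unadjusted p under 0.05 (4.35%, against 6.38% of all genes). That fit gives all groups 1 shared estimate of the spread. With the libraries of each line fitted alone, 4.05% of all genes were called in the HCT116 knockdown and 4.13% in the UF1hypo knockdown. The numbers of calls in the lines, 0.0708% and 13.3% of all genes in the shared fit, thus depend on that estimate. The median log2 fold change of the members was 0.11, against -0.03 over all tested genes. The members with groups that did not overlap were more often higher (38 members, where 20.1% of all genes were higher) than lower (11 members, where 29.3% were lower). COX8C, which passed only through 1 knockdown library, is among the 38.

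NDUFS3, a core subunit of the hydrophilic arm of complex I (chr11:47565336-47584562), had the lowest log2 fold change of the nuclear encoded members in HCT116. It stood at 172 and 184 TPM in shScr and 106 and 93.2 in shUHRF1, and at 163 and 185 TPM in UF1hypo with shScr and 176 and 132 with shUHRF1. The HCT116 knockdown libraries were the lowest of the 8 and did not overlap with any other group. The difference was -0.83 (SE 0.18) with an adjusted p of 0.175 over all 8 libraries, and an adjusted p of 0.0011 when the 4 HCT116 libraries were fitted alone. Its annotated span overlaps PTPMT1 on the same strand, which held 55.0 and 59.8 TPM in HCT116 shUHRF1 against 56.3 and 57.7 in shScr, and its difference between the lines' knockdown effects was 0.64 (SE 0.25, adjusted p = 0.207).

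The other extremes of the nuclear encoded members in the HCT116 comparison were ATP5F1A at -0.36, SDHD at -0.29, UQCRC2 at -0.20 and ATP5MC1 at -0.19 at the low end. At the high end were COX8C at 0.80, ATP5ME at 0.64, NDUFB1 at 0.63, ATP5MF at 0.50 and COX7A1 at 0.46. None was past the threshold. COX8C and COX7A1 passed the filter there only through HCT116 shUHRF1 replicate 1, which favored a positive value in advance. ATP5MF, a subunit of the membrane part of the ATP synthase, stood at 343 and 334 TPM in shScr and 411 and 561 in shUHRF1, and was called when the 4 HCT116 libraries were fitted alone.

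In UF1hypo the knockdown gave 7 called members of 91 tested, where 13.3% of all 13620 genes were called. COX6B2 rose (10.4% of all genes did) and 6 fell (2.86% of all genes did), 2 of the 7 with an absolute log2 fold change above 1 (8.53% of all genes). The median over the 91 was -0.28, against 0.04 over all genes, and 76 of the 91 were negative. By class the medians were -0.19 for the 37 nuclear encoded NDUF genes (complex I by symbol, with NDUFA4, a complex IV component, among them, 0 called by limma, 6 with an unadjusted p under 0.05), -0.33 for the 4 of complex II (0 called, 0 unadjusted), -0.21 for the 8 of complex III (1 lower), -0.19 for the 9 of complex IV (2 lower) and -0.37 for the 17 of complex V (2 lower). Of all genes, 27.4% had an unadjusted p under 0.05 in this comparison. The count of called members depended on the libraries. It was 11 without UF1hypo shUHRF1 replicate 1 (19.4% of all genes were called), 46 without its replicate 2 (47.6%), 24 after the G+C and length correction (30.5%) and 1 when the 4 UF1hypo libraries were fitted alone (4.13%). Without UF1hypo shScr replicate 1 or replicate 2 it was 1 or 2 (4.88% and 5.75%). The counts over all genes moved in the same direction as those of the members in each of these fits.

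Members of low transcript G+C content had the lower values in this comparison. The median log2 fold change was -0.49 in the 26 nuclear encoded members with the lowest G+C content (34.6% to 44.9%), -0.24 in the middle 26 and -0.05 in the 26 with the highest (52.8% to 69.5%). The medians of the gap between the knockdown replicates in the same groups were -0.68, -0.15 and 0.49. The part of G+C content in the fall of the members was not tested.

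**Figure D4:**
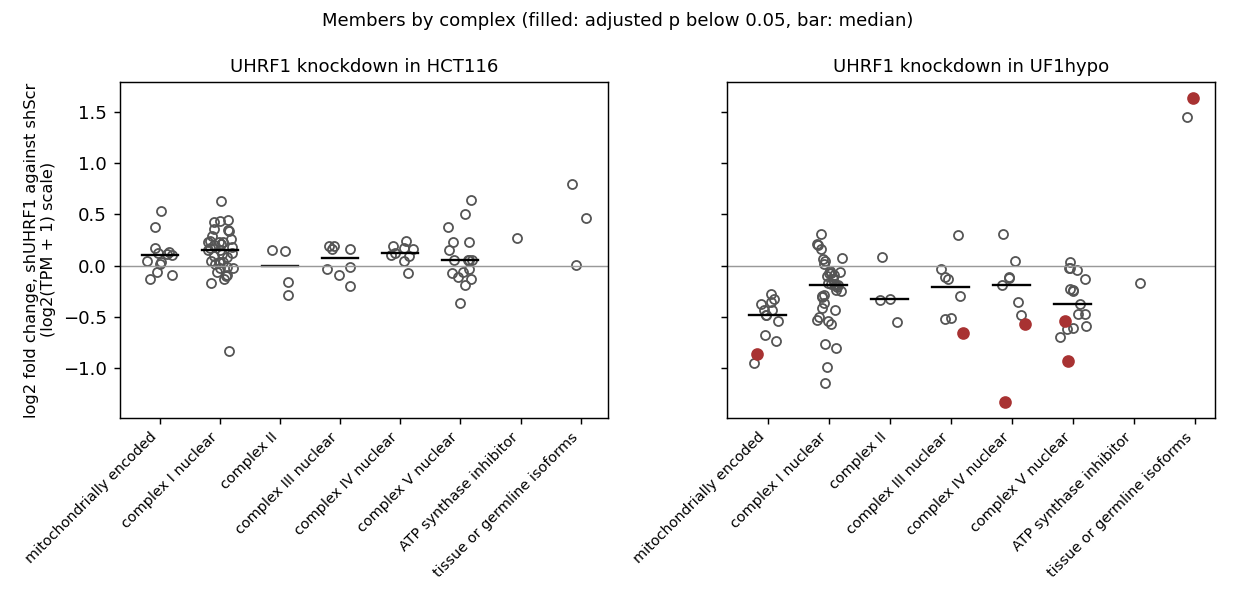
Each circle is a member tested in the UHRF1 knockdown of HCT116 (left) or UF1hypo (right), with its log2 fold change on the log2(TPM + 1) scale on the y axis and its complex by symbol (NDUFA4 with complex I) on the x axis (filled at an adjusted p below 0.05, bar at the median of classes with more than 3 members). In HCT116 no circle is filled, and in UF1hypo 7 are, 6 below 0 and COX6B2 above it at 1.64.

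COX6C, a small structural subunit of complex IV (chr8:99873200-99893707), fell the furthest of the members tested in UF1hypo. It stood at 237 and 271 TPM in HCT116 with shScr, 273 and 307 with shUHRF1, 242 and 212 in UF1hypo with shScr, and 66.1 and 121 with shUHRF1. Both UF1hypo knockdown libraries were below the other 6, and the HCT116 knockdown libraries were above their controls. COX6C fell by 1.33 on the log2 scale (SE 0.26, adjusted p = 0.0110) in UF1hypo, by 0.90 (adjusted p = 0.00841) without replicate 1 of the knockdown, and by 1.03 (adjusted p = 8.6e-05) after the correction. The knockdown effects of the lines differed by -1.53 (SE 0.36, adjusted p = 0.0498). Without UF1hypo shScr replicate 1, or with the 4 UF1hypo libraries fitted alone, the fall in UF1hypo was not called (adjusted p = 0.0899 and 0.0867).

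COX7C, another small complex IV subunit, stood at 433 and 387 TPM in UF1hypo with shScr and 260.1 and 292 with shUHRF1, and fell by 0.57 (SE 0.15, adjusted p = 0.0399). The call was lost without UF1hypo shUHRF1 replicate 1 (-0.49, adjusted p = 0.0595) and after the correction (-0.27, adjusted p = 0.306), and held in 11 of 20 alternatives. ATP5F1C, the rotating central stalk subunit of the ATP synthase, stood at 227 and 185 TPM in UF1hypo with shScr and 79.6 and 144 with shUHRF1, and fell by 0.93 (SE 0.25, adjusted p = 0.0469). Without that library its change was -0.51 and the call was lost (adjusted p = 0.0551), after the correction it was -0.67 (adjusted p = 0.00213), and the call held in 8 of 20 alternatives. ATP5MC1, which encodes the ring subunit c, stood at 341 and 362 TPM in UF1hypo with shScr and 253 and 231 with shUHRF1. It fell by 0.54 (SE 0.13, adjusted p = 0.0278, limma), by 0.60 without the library and by 0.55 after the correction. The call held after the correction, and in 14 of 20 alternatives. In these 3 genes both knockdown libraries were below both controls. UQCRC2, a core protein of complex III, did likewise, with 189.9 and 191 TPM in UF1hypo with shScr and 108 and 135 with shUHRF1 (fall of 0.66, SE 0.16, adjusted p = 0.0277, limma). It fell by 0.50 without the library and by 0.47 after the correction, where it was called. With the 4 UF1hypo libraries fitted alone 0 nuclear encoded members were called lower, so each call in this paragraph was lost. ATP5MC1 has a transcript G+C content of 55.1%, above the member median, whereas those of COX6C (40.5%), COX7C (40.7%), ATP5F1C (42.4%) and UQCRC2 (42.9%) are below it.

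The complex I subunits at the low end did not pass the test. NDUFB6 stood at 56.6 and 47.2 TPM in UF1hypo with shScr and 15.1 and 34.7 with shUHRF1 (-1.14, SE 0.32, adjusted p = 0.0531). NDUFB5 stood at 39.7 and 28.7 TPM and at 10.3 and 26.1 (-0.99, SE 0.37, adjusted p = 0.126). NDUFA5, the member with the lowest G+C content, stood at 24.6 and 12.5 TPM and at 4.19 and 21.0 (-0.80, SE 0.58, adjusted p = 0.417). At the high end, beside the isoforms below, COX6A1 had 0.31, NDUFA11 0.30 and UQCR11 0.30, none called.

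The tissue and germline isoforms of the complexes were near silence in most libraries, with COX6B2 as the exception. COX6B2 (chr19:55349306-55354719) encodes the form of the COX6B subunit known from testis. It stood at 3.48 and 4.40 TPM in HCT116 with shScr, 3.65 and 4.22 with shUHRF1, 4.66 and 6.08 in UF1hypo with shScr, and 21.7 and 16.1 with shUHRF1. The UF1hypo knockdown libraries were separate from the other 6. COX6B2 rose by 1.64 on the log2(TPM + 1) scale (SE 0.24, adjusted p = 0.0030) in UF1hypo, and its change in HCT116 was 0.00 (SE 0.24, adjusted p = 1.00). The difference between the effects was 1.63 (SE 0.33, adjusted p = 0.0295). Its rise in UF1hypo was 1.43 (adjusted p = 0.00942) without UF1hypo shUHRF1 replicate 1 and 1.51 (adjusted p = 0.000303) after the G+C and length correction.

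COX6B1, the common form, had 376 and 355 TPM in HCT116 with shScr, 385 and 411 with shUHRF1, 406 and 462 in UF1hypo with shScr, and 484 and 329 with shUHRF1, so that its groups overlapped in UF1hypo and the COX6B2 level stayed far below it in every library. COX6B2 shares its strand and position in part with the protein-coding gene CTD-2105E13.6, which was at or below 0.224 TPM in 6 libraries and at 8.95 and 4.81 TPM in UF1hypo shUHRF1, and reads of the pair may have been split between them. The windows printed above hold 31 CpG for COX6B2 and 16 for COX6B1, and DNA methylation was not measured in these libraries.

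COX7A1, the form of the COX7A subunit known from heart and skeletal muscle (chr19:36150922-36152449), was listed at 0 and stood at 0.747 TPM in HCT116 with shScr, at 1.38 and 0.393 with shUHRF1, 0.317 and 0.924 in UF1hypo with shScr, and 5.16 and 2.04 with shUHRF1. It passed the filter in UF1hypo only through the knockdown libraries and had to differ there. Its fitted change was 1.44 (SE 0.43, adjusted p = 0.0640), and 0.93 (adjusted p = 0.200) without UF1hypo shUHRF1 replicate 1. The summed level of the muscle markers (MYH7, ACTA1, CKM and DES, of which MYH7 stayed at or below 0.129 TPM) was 6.67 to 7.53 TPM in UF1hypo shScr and 18.1 to 24.5 in UF1hypo shUHRF1, against 4.40 to 7.60 in HCT116, and its part in the COX7A1 and COX6B2 values was not tested. The fibroblast markers summed to 22.9 to 28.8 TPM in UF1hypo shScr and 38.1 to 66.2 in UF1hypo shUHRF1, nearly all of it COL1A1, and PTPRC, CD3E and the other leukocyte markers stayed below 1 TPM.

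COX7A2, the common form of COX7A, stood at 296 and 275 TPM in UF1hypo with shScr and 188 and 222 with shUHRF1. COX8C, a germline form of COX8, reached 1.53 TPM in 1 HCT116 shUHRF1 library and was at or below 0.926 TPM elsewhere, against 512 to 784 TPM for COX8A. COX6A2 was listed at 0 in all 8 libraries, while COX7B2, ATP5MGL and UQCRHL never passed 1 TPM, and their counterparts COX6A1, COX7B, ATP5MG and UQCRH were measured at 286 to 408, 32.0 to 43.1, 111 to 183 and 172 to 349 TPM.

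Complex II, the succinate dehydrogenase that also serves the citric acid cycle, held no called member. SDHA, its flavoprotein, stood at 140.4 and 145 TPM in HCT116 with shScr, 154 and 162 with shUHRF1, 141 and 172 in UF1hypo with shScr, and 176 and 155 with shUHRF1. SDHB, the iron-sulfur subunit, had 167 and 146 TPM in UF1hypo with shScr and 109 and 142 with shUHRF1 (-0.33, SE 0.17, adjusted p = 0.246). The membrane anchors SDHC (-0.33, adjusted p = 0.326) and SDHD (-0.55, adjusted p = 0.234) had negative values too, with SDHD at 108 and 103 TPM in the controls and 51.1 and 101 in the knockdown. None of the 4 was called in any of the 5 comparisons. ATP5IF1, the inhibitor of ATP hydrolysis by the synthase, stood at 236 and 224 TPM in HCT116 with shScr, 241 and 317 with shUHRF1, 308 and 340.2 in UF1hypo with shScr, and 304 and 273 with shUHRF1, and was not called either.

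The test of the interaction between line and knockdown called 2 of 92 members, COX6C and COX6B2, where 5.22% of 13781 genes were called (median over the members -0.38, over all genes 0.08). Each of the 2 calls was lost when any 1 of the HCT116 or UF1hypo shScr libraries was left out, and COX6C also under most other settings tried. Among the other nuclear encoded members NDUFB5, NDUFB6, NDUFA5 and NDUFB4 had the lowest differences, from -1.22 to -0.94. The highest were COX7A1 (0.98), NDUFS3 (0.64), NDUFA11 (0.27) and COX6A1 (0.22), and none of these was called. COX7A1 exceeded 1 TPM only in knockdown libraries. In 17 of the 92 members both HCT116 knockdown libraries were above their controls and both UF1hypo knockdown libraries were below theirs, which 3.23% of all genes did, and in 0 the reverse held, which 6.94% of all genes did. The 17 were MT-CO2, MT-CO3, MT-ND4L, COX5B, COX6C, COX7A2, COX7C, NDUFA1, NDUFA2, NDUFA6, NDUFB4, NDUFS1, NDUFS5, NDUFS6, UQCR10, UQCRH and ATP5IF1, and most of them were named for this pattern after their values were seen. These counts describe 2 libraries a group and were not tested.

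Between the clone and its parent under the scrambled hairpin no member was called. Comparing UF1hypo shScr with HCT116 shScr, limma called 0 of 90 members, where 4.78% of 12856 genes were called, and 2 members had an unadjusted p under 0.05 (2.22%, against 18.2% of all genes). Both UF1hypo libraries were above both HCT116 libraries in 16 of the 90 (29.1% of all genes) and below both in 30 (37.2% of all genes). The median was -0.03, against -0.05 over all genes, and values ran from -0.69 for NDUFA5 to 0.52 for NDUFA3. The remaining extremes among the nuclear encoded members were UQCRB at -0.59, NDUFS1 at -0.29, NDUFV2 at -0.26 and ATP5MJ at -0.25, and ATP5IF1 at 0.49, NDUFA1 at 0.43, NDUFB1 at 0.41 and ATP5MC2 at 0.39. When the 4 libraries were fitted alone, 5 members were called (UQCRB, NDUFB1, NDUFA1, ATP5IF1 and NDUFA3), where 23.9% of all genes were. A p that misses the threshold does not show that the levels were equal.

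Between the knockdown pools, UF1hypo shUHRF1 against HCT116 shUHRF1, 25 of 92 members were called, 2 higher and 23 lower, where 30.2% of 13650 genes were called, 20.7% higher and 9.6% lower. The median was -0.36, against 0.05 over all genes. This comparison shares its libraries with both knockdown comparisons and is not separate evidence. COX6B2 was higher by 2.00 (SE 0.24, adjusted p = 0.0006) and NDUFS3 by 0.61 (SE 0.17, adjusted p = 0.0308). The lowest of the called nuclear encoded members were COX6C (-1.69, SE 0.26, adjusted p = 0.0020), NDUFB6 (-1.29, SE 0.32, adjusted p = 0.0186), NDUFB5 (-1.25, SE 0.37, adjusted p = 0.0353), UQCRB of complex III (-1.25, SE 0.31, adjusted p = 0.0177) and NDUFS1, the largest complex I subunit (-1.02, SE 0.22, adjusted p = 0.0098). NDUFA5 at -1.70 had a wider error (SE 0.58) and was not called (adjusted p = 0.0570). NDUFS1 stood at 27.1 and 28.4 TPM in HCT116 shUHRF1 and 10.6 and 16.3 in UF1hypo shUHRF1, and UQCRB at 97.9 and 103 against 28.7 and 60.0, with no overlap in either. By complex, 6 of 37 NDUF genes, 4 of 8 of complex III, 3 of 9 of complex IV and 4 of 17 of complex V were lower. A further NDUF gene was higher, and 0 of 4 of complex II passed in limma (1 at an unadjusted p under 0.05, where 43.4% of all genes were). The count was 24 without UF1hypo shUHRF1 replicate 1 (33.2% of all genes were called), 54 without its replicate 2 (60.7%), 8 without HCT116 shUHRF1 replicate 1 (13.8%) and 2 without HCT116 shUHRF1 replicate 2 (12.9%).

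Genes that act on the complexes were read from separate lists. Of the subunits outside the name pattern, NDUFA4L2, a hypoxia-responsive relative of the complex IV component NDUFA4, differed the most. It stood at 2.85 and 2.71 TPM in HCT116 with shScr, 2.98 and 2.26 with shUHRF1, 15.2 and 15.3 in UF1hypo with shScr, and 9.64 and 5.94 with shUHRF1. All 4 UF1hypo libraries were above all 4 HCT116 libraries. It was higher in the clone by 2.11 (SE 0.25, adjusted p = 0.00216) and fell by 0.92 (SE 0.25, adjusted p = 0.0446) with the knockdown in UF1hypo.

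Among the nuclear regulators, MYC, a transcription factor that drives many mitochondrial genes, stood at 485 and 493 TPM in HCT116 with shScr, 466 and 407 with shUHRF1, 252 and 217 in UF1hypo with shScr, and 209.5 and 203 with shUHRF1. It was lower in the clone (log2 difference -1.06, SE 0.14, adjusted p = 0.00396). MYC was called under both hairpins between the lines, where 4.78% (shScr) and 30.2% (shUHRF1) of all genes were called. No other regulator of the 8 tested was called in any comparison. PPARGC1A, the coactivator of mitochondrial biogenesis, was listed at 0 in all 8 libraries. Of the 49 assembly factors, limma called 0 in either knockdown (0.0708% of all genes in HCT116 and 13.3% in UF1hypo). At an unadjusted p under 0.05 there were 2 in HCT116 (6.38% of all genes) and 8 in UF1hypo (27.4%). Between the knockdown pools 4 of them were higher and 4 lower (20.7% and 9.6% of all genes). ECSIT, a complex I assembly factor, was lower in the clone (-1.04, SE 0.20, adjusted p = 0.0202), at 45.2 and 46.7 TPM against 88.6 and 103 in HCT116 shScr.

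Of 33 factors of mitochondrial DNA and RNA, 1 was called in the UF1hypo knockdown, where 13.3% of all genes were. POLG2, the accessory subunit of the mitochondrial DNA polymerase, stood at 43.0 and 36.4 TPM in UF1hypo with shScr and 21.3 and 23.7 with shUHRF1 and fell by 0.79 (SE 0.16, adjusted p = 0.0160). TFAM, which packages and starts transcription of mitochondrial DNA, stood at 21.9 and 16.9 TPM in UF1hypo with shScr and 8.33 and 24.5 with shUHRF1, so its groups overlapped. POLRMT, the mitochondrial RNA polymerase, stood at 137 and 163 TPM and at 182 and 119.7, again with overlap. PNPT1, the mitochondrial polynucleotide phosphorylase, stood at 33.7 and 28.3 TPM in UF1hypo with shScr and 31.8 and 60.8 with shUHRF1, and was called only against HCT116 shUHRF1, where it was higher by 0.88 (SE 0.28, adjusted p = 0.0425). In that comparison it was the 1 factor of the 33 that was higher (20.7% of all genes were), and 5 were lower (9.6% of all genes were), among them FASTKD1 at -1.34, POLG2 at -1.17 and LRPPRC at -1.01, which act on mitochondrial RNA or, for POLG2, DNA.

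The mitochondrial ribosome translates the 13 mRNAs. Of its 78 nuclear encoded proteins, 0 rose and 5 fell in the UF1hypo knockdown (10.4% and 2.86% of all genes). In the HCT116 knockdown limma called 0, and 2 had an unadjusted p under 0.05 (6.38% of all genes did). Their median log2 fold change was -0.19 in UF1hypo, against 0.04 over all genes. MRPS27 fell the furthest, by 1.34 (SE 0.21, adjusted p = 0.00416), from 86.0 and 73.1 TPM in UF1hypo shScr to 26.0 and 36.6 in UF1hypo shUHRF1, while MRPS30 fell by 0.70, MRPL24 by 0.67, MRPS6 by 0.65 and MRPS18B by 0.56. MRPS18B was also lower in the HCT116 knockdown, at 116 and 113 TPM against 173 and 174 in shScr. MRPS30 was lower there too (110 and 96.1 against 120 and 119), and MRPS6 was higher (66.3 and 63.1 against 54.0 and 52.4). MRPS27 and MRPL24 overlapped in HCT116. Between the knockdown pools 16 of the 78 were lower and 1 was higher (9.6% and 20.7% of all genes).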

How the data were processed

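Polyadenylated RNA was sequenced as paired reads from 8 libraries, 2 in each of 4 groups named by GEO's labels. Per the study's methods, Fastp was used for read trimming, HISAT2 2.0.4 for alignment to GRCh38 and StringTie 2.1.4 for gene quantification. The signal values deposited by the authors are StringTie's mean per-base coverage of each gene, not scaled for depth. The FPKM values deposited by the authors are scaled for gene length and aligned bases, and the TPM values deposited by the authors for gene length with an equal sum per library. No read counts were analysed, so the counting error of a gene is unknown and no interval was formed. The study's methods name GENCODE as the annotation of protein-coding genes, and its release and the strand setting are not given in the sources used here, so reads of overlapping genes cannot be told apart. The aligned bases per library were computed from coverage and FPKM of mitochondrial genes.

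Values were summed per gene identifier, and gene types, canonical transcript length and G+C content came from GENCODE. Protein-coding genes above 1 TPM in at least 1 library of a comparison were tested with limma 3.58.1 (R 4.3.3) on log2(TPM + 1), with a mean-variance trend, all 8 libraries in 1 model (4 residual degrees of freedom) and Benjamini-Hochberg adjustment over all tested genes. A call is an adjusted p below 0.05. Fold changes on this scale understate those of low genes. The script was tested on simulated data. The members, gene lists and motifs were chosen with earlier results of these data known, so counts over them are descriptions. Genes named are UHRF1, the mitochondrial members, complex II, the tissue and germline isoforms with their counterparts, ATP5IF1, the 5 nuclear encoded members with the highest and the 5 with the lowest fold change of each comparison, the called nuclear members up to 10 a comparison, up to 5 called genes of each further list, and PPARGC1A, TFAM, POLRMT and PNPT1. Other genes named with a value were chosen after their values were seen.

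Alternatives were another pseudocount, other filters and gene sets, FPKM, 3 other scalings, a fit without the trend, library weights, the libraries of a comparison alone, the replicate number as a block, a correction for G+C content and length (medians within 10 bins of each removed), the largest record of a gene, and each library left out. The crossed pairing, the correction together with a library left out, and the pseudogenes added to the nuclear sum were chosen after seeing the data.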

Additional observations from a re-analysis of the deposited data

Results flagged for a closer look

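The knockdown effects of the 2 lines differed by test for COX6B2, by 1.63 on the log2(TPM + 1) scale (UF1hypo minus HCT116, SE 0.33, adjusted p = 0.0295), and for COX6C, by -1.53 (SE 0.36, adjusted p = 0.0498), both from limma. For both genes the 2 UF1hypo knockdown libraries lay outside the range of the other 6. The call for each was lost when any 1 of the other 6 libraries was left out (adjusted p from 0.0753 to 0.158 for COX6B2 and from 0.131 to 0.223 for COX6C), and it was kept without either UF1hypo shUHRF1 library.

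The summed share of the mitochondrially encoded members moved in opposite directions in the 2 lines, higher in both HCT116 knockdown libraries and lower in both UF1hypo knockdown libraries. The difference between the changes was -4.46 percentage points of TPM and was not tested. The share of the nuclear encoded members in the TPM of nuclear genes did the same, with a difference of -0.454 percentage points, and was not tested either. Without UF1hypo shUHRF1 replicate 1 the first difference was -1.80 percentage points and the second -0.458. The HCT116 rise of the nuclear share rested mostly on shUHRF1 replicate 2, at 2.13%, against 1.90% in replicate 1 and 1.87% in both controls. With 1 library left out the HCT116 change was as small as 0.0241 percentage points for the nuclear share and 0.307 for the mitochondrial share.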

How the results depend on the processing

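The count of called members was the result most open to the processing. In the HCT116 knockdown it was 0, where 0.0708% of all genes were called. It became 2 with the 4 libraries of the comparison alone (4.05% of all genes), 1 with the G+C and length correction (3.20%) and 2 with library weights. In the UF1hypo knockdown it was 7. It became 1 with the 4 libraries alone (4.13% of all genes) and 24 with the G+C and length correction (30.5%). The count was 2 without the variance trend, 2 with the replicate block and 1 with library weights. For the difference of the effects it was 2. It became 1 with a pseudocount of 0.1, a filter on mean TPM, all annotated genes, FPKM, no variance trend or library weights. TPM over nuclear genes also gave 1 (4.65% of all genes). The count was 0 with no TPM filter, the replicate block or quantile normalization (3.65%), and 11 with the G+C and length correction (16.1%). Between the lines under shScr it was 0. It became 5 with the 4 libraries alone (23.9% of all genes), 2 with the correction (16.1%) and 6 with library weights. Between the knockdown pools it was 25. It became 16 with no TPM filter, 11 with the 4 libraries alone (16.6% of all genes) and 9 with library weights. Shares over all genes are not given here for the other settings. With the correction the median log2 fold change of the nuclear encoded members moved from -0.22 to -0.15 in the UF1hypo knockdown. For the difference it moved from -0.33 to -0.21. The correction was also made without UF1hypo shUHRF1 replicate 1, where these medians were -0.23 and -0.30. The causes were not tested.

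Leaving out 1 library gave 0 to 0 members in the HCT116 knockdown, 1 to 46 in the UF1hypo knockdown, 0 to 41 for the difference, 0 to 0 between the lines under shScr and 2 to 54 between the knockdown pools. The 41 for the difference came without UF1hypo shUHRF1 replicate 2, where 30.9% of all genes were called. That fit leaves 1 library in the group, so the 41 is not by itself a result about the members. The shares of all genes that belong to the 46 and the 54 are given above. For the mitochondrial share the difference of group means ran from 0.307 to 1.38 percentage points (HCT116 knockdown), -6.27 to -0.954 (UF1hypo knockdown), -7.11 to -1.80 (difference), -2.25 to -0.490 (shScr) and -8.48 to -3.17 (shUHRF1). For the log2 ratio it ran from -0.02 to 0.02, -0.81 to 0.15, -0.81 to 0.15, -0.29 to -0.03 and -0.97 to -0.02 in the same order. For the nuclear share of nuclear TPM it ran from 0.0241 to 0.253, -0.336 to -0.294, -0.569 to -0.339, -0.0367 to 0.00553 and -0.584 to -0.355, and the G+C and length correction moved its UF1hypo knockdown value from -0.315 to -0.218.

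Quantile normalization moved the median log2 fold change of all tested genes from 0.04 to -0.06 in the UF1hypo knockdown, from 0.08 to -0.06 for the difference and from 0.05 to -0.09 between the knockdown pools, and turned the split of higher and lower calls over all genes from 1419 and 390 to 1021 and 706, from 634 and 86 to 377 and 126, and from 2819 and 1310 to 2164 and 2243 in the same order. Samples of the groups share only a replicate number. The correlation of replicate 1 minus replicate 2 between groups lay between -0.03 and 0.05 in 5 of 6 pairs of groups and was -0.402 between the UF1hypo groups. With the replicate block 0 members were called in the HCT116 knockdown, 0 between the lines under shScr and 19 between the knockdown pools, and with crossed numbers in UF1hypo shUHRF1 10 were called in the UF1hypo knockdown. Among 491 values of single genes under alternatives, 364 kept their side of the threshold, 100 lost it, 27 gained it and 0 turned direction with a call. Without counts, depth sets no stated limit.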
